A study of Mus musculus with 6 samples.

Results

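Genes of glycolysis and of the response to low oxygen were followed in 6 tumors grown from 4T1 cells, a mouse mammary carcinoma line. They were taken from a fixed list of 39 symbols, and each was read from its brightest probe set (by the mean of all 6 arrays) among those naming that gene alone. Of the 39, 38 could be measured, out of 19937 genes on the array. Gpi1 (glucose-6-phosphate isomerase) had no probe set listed for it alone and was not analysed here, and Ero1l was found under its current symbol Ero1a. Of the measured genes, 18 belong to glycolysis (4 transporters, 9 enzymes, 5 enzymes that switch its flux) and 20 to the HIF pathway (5 genes of HIF and its oxygen sensing, 15 other targets). The values were not used to choose them, although results of these arrays were known when the list was drawn up.

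The TKI258 group was 3 tumors from Balb/C mice dosed orally with TKI258 at 40 mg/kg, once a day over 14 days, and the water group was 3 tumors from mice given water on the same schedule. All mice had received 750000 4T1 cells in mammary gland 4, and dosing began 7 days later. TKI258 (dovitinib) blocks receptor kinases that bind PDGF, VEGF and FGF family ligands. All tumors came from a single transplanted line, which the labels call biological replicates, 1 array was used per tumor, and the RNA was from whole tumors, so that fewer cells of a type and less RNA per cell cannot be told apart. The comparison asks whether these genes differ between tumors after treatment.

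Glycolysis takes glucose through a chain of enzymes to pyruvate, most of which a tumor cell may export as lactate. When oxygen is short, the prolyl hydroxylases that mark the HIF alpha subunits for destruction by the VHL complex lose activity, and HIF then raises transcription of glucose transporters, most glycolytic enzymes, pyruvate dehydrogenase kinases and genes of acid export, vessel growth and mitochondrial removal. In solid tumors this program is known to be strongest at a distance from vessels, which is why it is often read as a sign of hypoxia.

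No gene of the program passed the test. Across the array 0 of 34760 probe sets (0%) had a limma adjusted p under 0.05, and 8.06% had an unadjusted p under 0.05. Of the 38 genes 31 had a lower mean in TKI258 than in water tumors, against 43.4% of all genes, and the median log2 difference (TKI258 minus water) was -0.12, against 0.02 for all genes. The glycolysis genes had a median of -0.09 (15 of 18 lower) and the HIF pathway genes a median of -0.13 (16 of 20 lower). The baseline depends on signal. Among genes with a mean signal above 6.40, which kept 37 of the 38, the median of all genes was -0.03. The medians were then -0.10 for glycolysis and -0.13 for HIF pathway genes. The share of lower means among all such genes was not counted. The mean of the 38 genes was 9.40 to 9.76 per tumor, far above this cut, and no baseline at that level was computed. Only Ankrd37 and Higd1a (the latter not on its second probe set), both lower, had an unadjusted limma p under 0.05, and no higher gene did. Those 2 of 38 stand beside 3.35% of all genes in the lower direction, 3.79% in the higher and 7.14% in either. Only in Ankrd37 did the tumors of the groups not overlap, which was so for 6.49% of all genes in the lower direction, 8.66% in the higher and 15.1% in either. The larger of the group SDs exceeded the absolute difference in 31 of the 38 genes, and in 71.5% of all genes.

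**Figure D1:**
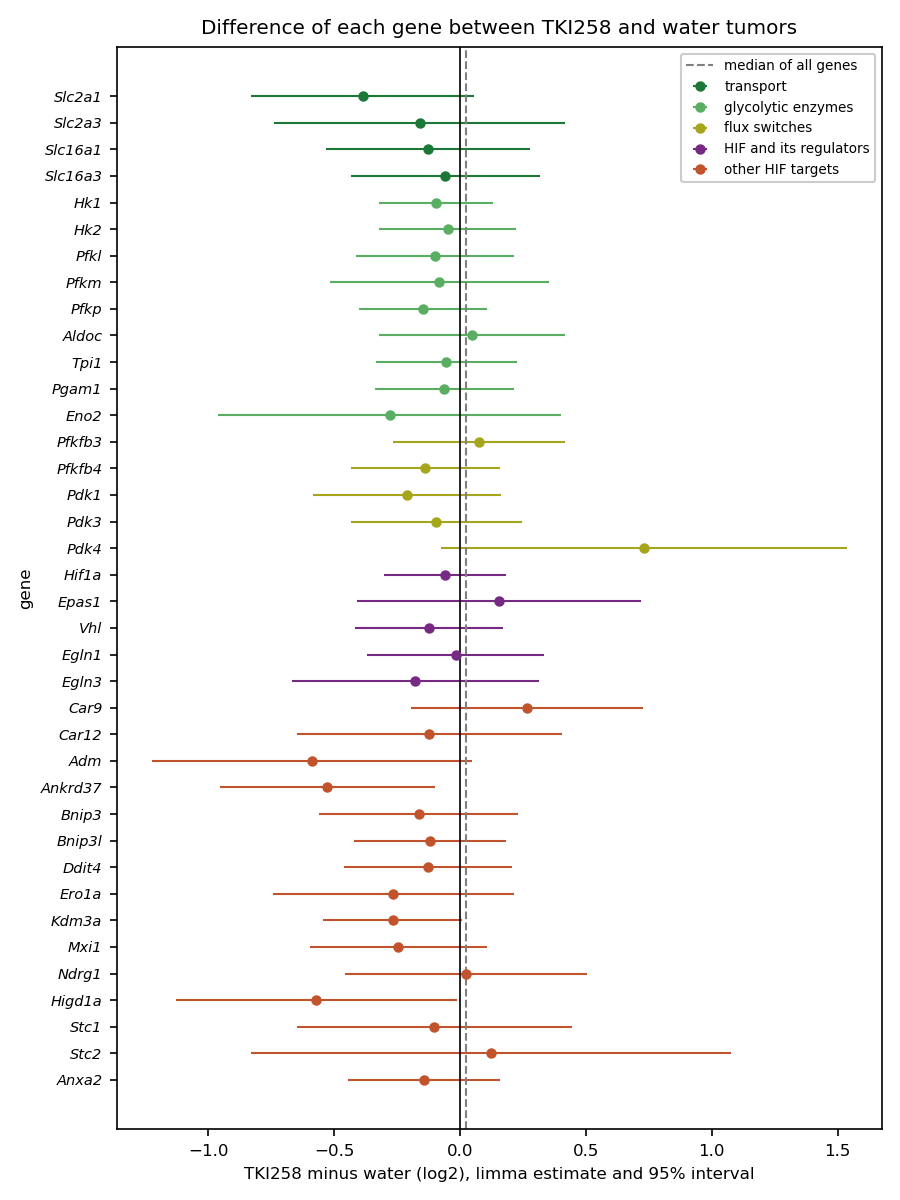
Difference between TKI258 and water tumors for each of the 38 genes (horizontal axis, log2 units, limma estimate with its 95% interval), colored by role, with the median of all genes dashed. Most points lie a little to the left of 0, the intervals of Ankrd37 and Higd1a alone exclude 0 before adjustment, and Pdk4 lies farthest to the right at 0.73.

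HIF binds DNA at a short core, ACGTG or GCGTG, which many of these genes carry near their start. In RefSeq promoters (GRCm38.p6) 33 of the 38 genes had an entry, and 34 of their 44 windows of 250 bases before a listed start held the core on either strand (77.3%), against 38.6% of all 32851 windows. The gene windows were also richer in CG pairs, with a median of 13.5 against 6.0. Of the 9646 windows with at least 13.5 pairs, 67.3% held the core. These had a median of 22.0 CG pairs, more than the gene windows, so they are not a matched baseline. The 4 genes with an entry but no core in any window were Car12, Eno2, Tpi1 and Vhl. A match describes letters only. The windows of 4 genes are shown because they span the pattern of the data. Ankrd37 and Higd1a had the smallest p among the lower HIF targets of the 38 genes, and Slc2a1 the largest difference among the transporters. Car9, a classical HIF target, had a higher mean in TKI258 tumors, with no call. They lie at chr8:45999851-46000100 (minus strand), chr9:121857797-121858046 (minus), chr4:119108495-119108744 (plus) and chr4:43506776-43507025 (plus), and capitals mark the core on either strand, overlapping matches running together.
Ankrd37: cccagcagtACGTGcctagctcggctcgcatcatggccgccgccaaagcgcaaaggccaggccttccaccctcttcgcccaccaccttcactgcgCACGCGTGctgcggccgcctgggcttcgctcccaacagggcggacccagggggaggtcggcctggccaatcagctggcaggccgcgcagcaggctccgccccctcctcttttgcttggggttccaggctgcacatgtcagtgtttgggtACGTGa
Higd1a: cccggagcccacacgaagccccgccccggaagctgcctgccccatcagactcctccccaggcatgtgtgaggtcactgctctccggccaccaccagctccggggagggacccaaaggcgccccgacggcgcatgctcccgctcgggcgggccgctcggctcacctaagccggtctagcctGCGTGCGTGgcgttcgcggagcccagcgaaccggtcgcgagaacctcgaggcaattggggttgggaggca
Slc2a1: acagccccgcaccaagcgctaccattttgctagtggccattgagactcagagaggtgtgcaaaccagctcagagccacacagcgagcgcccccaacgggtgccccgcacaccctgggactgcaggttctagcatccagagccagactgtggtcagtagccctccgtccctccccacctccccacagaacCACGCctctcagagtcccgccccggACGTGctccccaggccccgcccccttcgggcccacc
Car9: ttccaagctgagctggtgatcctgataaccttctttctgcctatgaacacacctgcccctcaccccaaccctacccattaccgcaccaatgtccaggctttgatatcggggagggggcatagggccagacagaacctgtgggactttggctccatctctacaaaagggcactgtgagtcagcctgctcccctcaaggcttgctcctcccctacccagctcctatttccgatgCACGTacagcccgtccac
Ankrd37 held the core at 3 places, Slc2a1 at 2, and Higd1a and Car9 at 1 each. The place nearest the start was 2 bases before it in Ankrd37, 14 in Car9, 32 in Slc2a1 and 62 in Higd1a.

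Glucose enters and lactate leaves through the transporters, and all 4 had lower means in TKI258 tumors with no call. Slc2a1, the main glucose transporter of most tumor cells, had log2 signals of 11.61, 11.41 and 11.10 in TKI258 tumors, against 11.60, 11.60 and 12.08 in water tumors. Water replicate 3 stood above all others, while TKI258 replicate 1 was level with the other water tumors, so the groups overlapped. The difference was -0.39 ± 0.19 (SE), or 1.31-fold lower, with a 95% interval of -0.83 to 0.06 and a limma adjusted p of 0.652. Leaving out water replicate 3 gave -0.22, and leaving out TKI258 replicate 3 gave -0.25. Slc2a3, a glucose transporter of high affinity, differed by -0.16 ± 0.24. The lactate carriers Slc16a1 and Slc16a3, of which Slc16a3 is the HIF-induced exporter, differed by -0.13 ± 0.17 and -0.06 ± 0.16.

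The 9 measured glycolytic enzymes stayed within 0.28 log2 units of equal means, 8 of them lower. Hk2, the inducible hexokinase that traps glucose in the cell, had 10.09, 10.07 and 9.80 in TKI258 tumors, against 9.99, 9.96 and 10.16 in water tumors. These values interleave, and the difference was -0.05 ± 0.11 with a 95% interval of -0.32 to 0.22. Hk1, the constitutive hexokinase, differed by -0.10 ± 0.10, and its second probe set by -0.02 ± 0.09. The phosphofructokinase genes Pfkl, Pfkm and Pfkp, whose products catalyse the committed step, differed by -0.10 ± 0.13, -0.08 ± 0.18 and -0.15 ± 0.11. Further down the chain Aldoc (an aldolase) differed by 0.05 ± 0.15, Tpi1 (triosephosphate isomerase) by -0.05 ± 0.12 and Pgam1 (phosphoglycerate mutase) by -0.06 ± 0.12. Eno2, an enolase that tumors switch on in hypoxia, had the largest difference of the enzymes and the widest scatter. Its signals were 9.26, 8.29 and 8.29 in TKI258 tumors, against 8.67, 8.82 and 9.18 in water tumors. TKI258 replicate 1 was the highest of all 6 tumors and the other two TKI258 tumors were the lowest. The difference was -0.28 ± 0.29 (limma adjusted p = 0.790). It was -0.60 without TKI258 replicate 1, and -0.12 without either of the other TKI258 tumors, and -0.13 without water replicate 3.

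Enzymes that set the flux into and out of the pathway differed in both directions. The pyruvate dehydrogenase kinases inhibit pyruvate dehydrogenase and so limit the use of pyruvate in the mitochondria. Pdk1, the HIF-induced member, had 9.36, 9.20 and 8.84 in TKI258 tumors, against 9.18, 9.49 and 9.37 in water tumors, a difference of -0.21 ± 0.16. Only TKI258 replicate 3 lay below all water tumors, and without it the difference was -0.0632. Pdk3 differed by -0.09 ± 0.14. Pdk4, which is induced by fasting and fatty acids and is high in muscle and fat, went the other way and had the largest absolute difference of all 38 genes. It had 5.98, 6.40 and 7.35 in TKI258 tumors, against 5.87, 6.05 and 5.61 in water tumors. TKI258 replicate 3 was far above the rest, and TKI258 replicate 1 lay within the range of the water tumors. The difference was 0.73 ± 0.34, or 1.66-fold higher, with a 95% interval of -0.07 to 1.54 and a limma adjusted p of 0.647. Leaving out TKI258 replicate 3 gave 0.34. Pdk4 was also the only one of the 38 whose mean over the tumors lay below every array median (6.38 to 6.44). Adipocyte markers differed in the same direction: 10 of 10 measured markers had higher means in TKI258 tumors, with list means of 7.56, 8.28 and 9.07 there, against 7.56, 6.37 and 6.97 in water tumors. Their part in the Pdk4 difference was not tested. Pfkfb3 and Pfkfb4 make the activator of phosphofructokinase, and differed by 0.08 ± 0.14 and -0.14 ± 0.12.

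**Figure D2:**
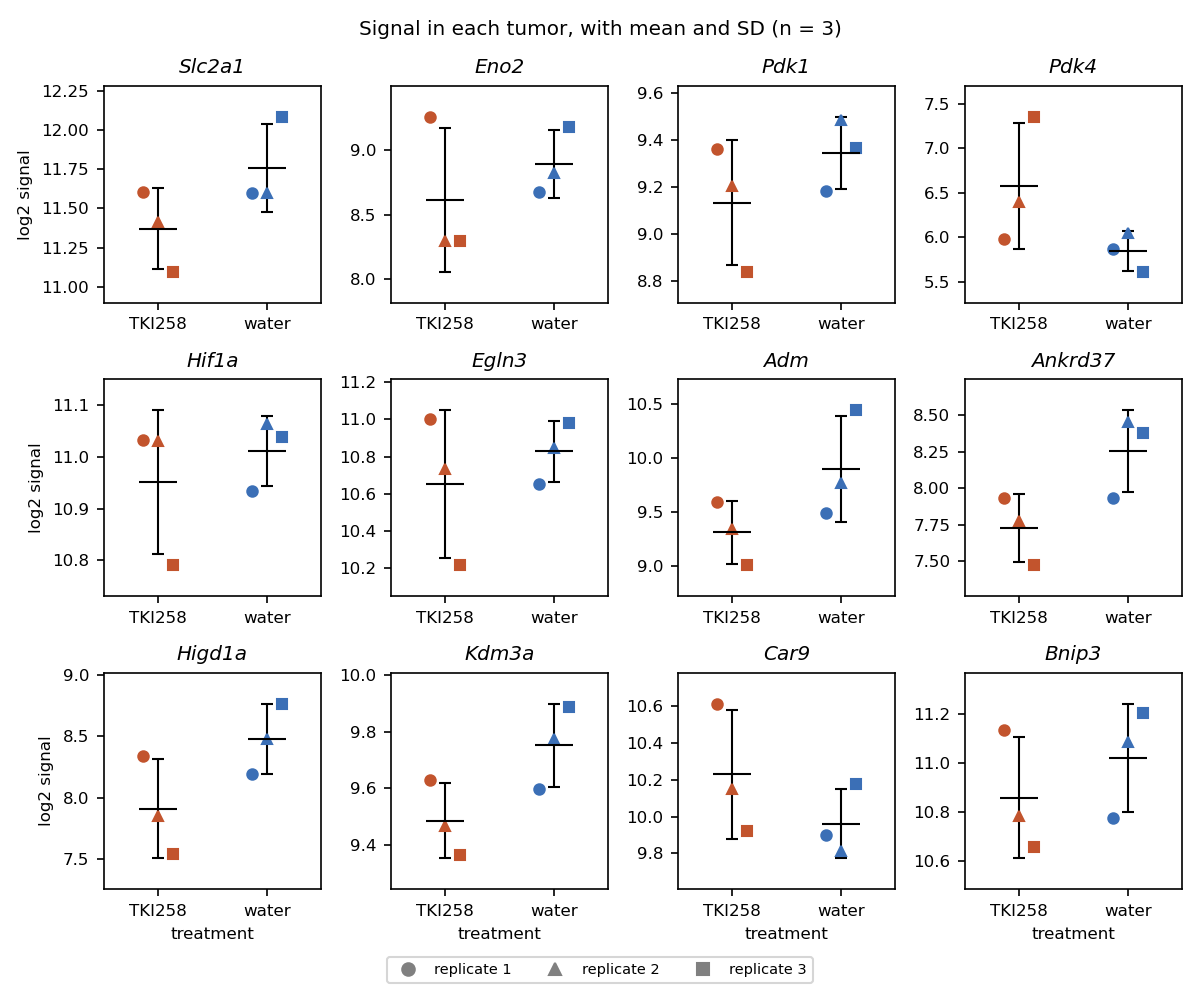
Log2 signal (vertical axes, scaled to each gene) of 12 genes in the 3 TKI258 and 3 water tumors, with the mean and SD of each group; symbols mark the replicate. Ankrd37 is the only gene whose groups do not overlap, and TKI258 replicate 3 (squares) is the lowest of its group in every panel but that of Pdk4, in Eno2 by less than the symbols show.

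The genes of HIF itself and of its oxygen sensing had small differences. Hif1a, the oxygen-regulated subunit present in most cells, had 11.03, 11.03 and 10.79 in TKI258 tumors, against 10.93, 11.06 and 11.04 in water tumors. TKI258 replicate 3 was lowest and the others lay together. The difference was -0.06 ± 0.10 with a 95% interval of -0.30 to 0.18. HIF is regulated mainly through the stability of its protein, which these arrays do not measure. Epas1, the second alpha subunit and the one best known from endothelium, had 7.06, 7.04 and 7.76 in TKI258 tumors, against 7.45, 7.04 and 6.90 in water tumors. The difference was 0.15 ± 0.24. Its highest values were in TKI258 replicate 3 and water replicate 1, the tumors that were also highest in B cell markers. In each group they were also the highest in adipocyte markers. Endothelial markers were highest in TKI258 replicate 3 of its group, but in water replicate 2 among water tumors. The part of any of these cells in the Epas1 values was not tested.

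Vhl, whose product targets HIF for degradation, had 7.60, 7.53 and 7.31 in TKI258 tumors, against 7.46, 7.58 and 7.77 in water tumors (-0.12 ± 0.12). The groups overlapped, and the difference was between -0.20 and -0.0385 with each array left out. Egln1, the main prolyl hydroxylase that senses oxygen, had 9.80, 9.61 and 9.32 in TKI258 tumors, against 9.47, 9.56 and 9.77 in water tumors. Its extremes were both TKI258 tumors, and the difference was -0.02 ± 0.15. Egln3, a hydroxylase that HIF itself induces strongly, had 11.00, 10.73 and 10.22 in TKI258 tumors, against 10.65, 10.85 and 10.98 in water tumors. The TKI258 tumors again spanned the water tumors, with a difference of -0.18 ± 0.21 and a limma adjusted p of 0.810. Leaving out TKI258 replicate 3 gave a log2 difference of 0.04.

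Among the 15 other HIF targets 12 had lower means in TKI258 tumors, and the largest differences of the lower genes were here. Ankrd37, a small ankyrin repeat protein induced by HIF, had 7.93, 7.78 and 7.47 in TKI258 tumors, against 7.94, 8.45 and 8.38 in water tumors. The means were 7.73 ± 0.23 in TKI258 and 8.25 ± 0.28 in water tumors (SD, n = 3 each). The groups were separated by a gap of less than 0.01 between TKI258 replicate 1 and water replicate 1. The difference was -0.53 ± 0.18, or 1.44-fold lower, with a 95% interval of -0.95 to -0.10, an unadjusted limma p of 0.0226 and a limma adjusted p of 0.587. Its promoter, shown above, held the core at more places than the other windows printed. Whether the number of places goes with the size of a difference was not tested.

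Higd1a, a mitochondrial protein induced by hypoxia, had 8.34, 7.85 and 7.54 in TKI258 tumors, against 8.19, 8.48 and 8.77 in water tumors. TKI258 replicate 1 lay above water replicate 1. The means were 7.91 ± 0.41 in TKI258 and 8.48 ± 0.29 in water tumors (SD, n = 3 each). The difference was -0.57 ± 0.23, or 1.48-fold lower, with an unadjusted limma p of 0.0468 and a limma adjusted p of 0.615. A second probe set of the gene differed by -0.29 ± 0.20 with an unadjusted limma p of 0.200, and the mean of both probe sets by -0.43, so the size depends on the probe set. Whether the brightest probe sets of Higd1a, Hk1 and Bnip3 also take up RNA of near-identical copies was not tested.

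Adm, which encodes the vasodilator peptide adrenomedullin, had 9.59, 9.34 and 9.01 in TKI258 tumors, against 9.49, 9.77 and 10.45 in water tumors. Water replicate 3 was by far the highest, and TKI258 replicate 1 lay above water replicate 1. The difference was -0.59 ± 0.27 (limma adjusted p = 0.639), and -0.32 without water replicate 3. Kdm3a, a histone demethylase, differed by -0.27 ± 0.12, the redox enzyme gene Ero1a (Ero1l) by -0.26 ± 0.20 and Mxi1, an antagonist of MYC, by -0.24 ± 0.15. Their limma adjusted p lay between 0.630 and 0.727. With TKI258 replicate 3 left out, Kdm3a differed by -0.21, Ero1a by -0.082 and Mxi1 by -0.0921.

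Car9, the membrane carbonic anhydrase used as a marker of hypoxia, had a higher mean in TKI258 tumors. It had 10.61, 10.15 and 9.92 there, against 9.90, 9.81 and 10.17 in water tumors. Water replicate 3 was above both of the lower TKI258 tumors, and the difference was 0.27 ± 0.19 with a 95% interval of -0.19 to 0.73. Leaving out TKI258 replicate 1 gave 0.0741, and leaving out TKI258 replicate 3 gave 0.42. Car12, a related carbonic anhydrase, differed by -0.12 ± 0.22. Bnip3, a receptor for removal of mitochondria, had 11.13, 10.78 and 10.66 in TKI258 tumors, against 10.77, 11.08 and 11.20 in water tumors, a difference of -0.16 ± 0.17. The groups interleave, the difference was between -0.30 and -0.0633 with each array left out, and its second probe set differed by -0.24 ± 0.19. Its relative Bnip3l differed by -0.12 ± 0.13 and, on a second probe set, by -0.32 ± 0.23.

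The remaining targets had differences smaller than 0.15. Ddit4, an inhibitor of mTOR signaling, differed by -0.13 ± 0.14, Anxa2 (annexin) by -0.14 ± 0.13 and Ndrg1, a stress-induced gene, by 0.02 ± 0.20. The stanniocalcin genes Stc1 and Stc2 differed by -0.10 ± 0.23 and 0.12 ± 0.40, and Stc2 was highest in TKI258 replicate 3 (7.53) and water replicate 1 (7.28), against the order of most other targets.

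The genes of the program spread widely between tumors of the same group. TKI258 replicate 1 was the highest of the 3 TKI258 tumors in 31 of the 38 genes, and replicate 3 the lowest in 29. All genes gave 33.8% and 44.0% for the same tumors. Both held, with replicate 2 between them, in 27 genes (71.1%), against 22.5% of all genes: in 10 of 18 glycolysis genes and 17 of 20 HIF pathway genes. Over all 6 tumors, replicate 3 of TKI258 was the lowest in 24 genes and water replicate 3 the highest in 14, against 28.2% and 15.3% of all genes. No gene was highest in water replicate 1, and none was lowest in TKI258 replicate 1, but only 8.67% and 8.27% of all genes were. The median SD within the TKI258 group was 0.24 for the 38 genes, against 0.13 for all genes, and within the water group 0.19, against 0.12.

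**Figure D3:**
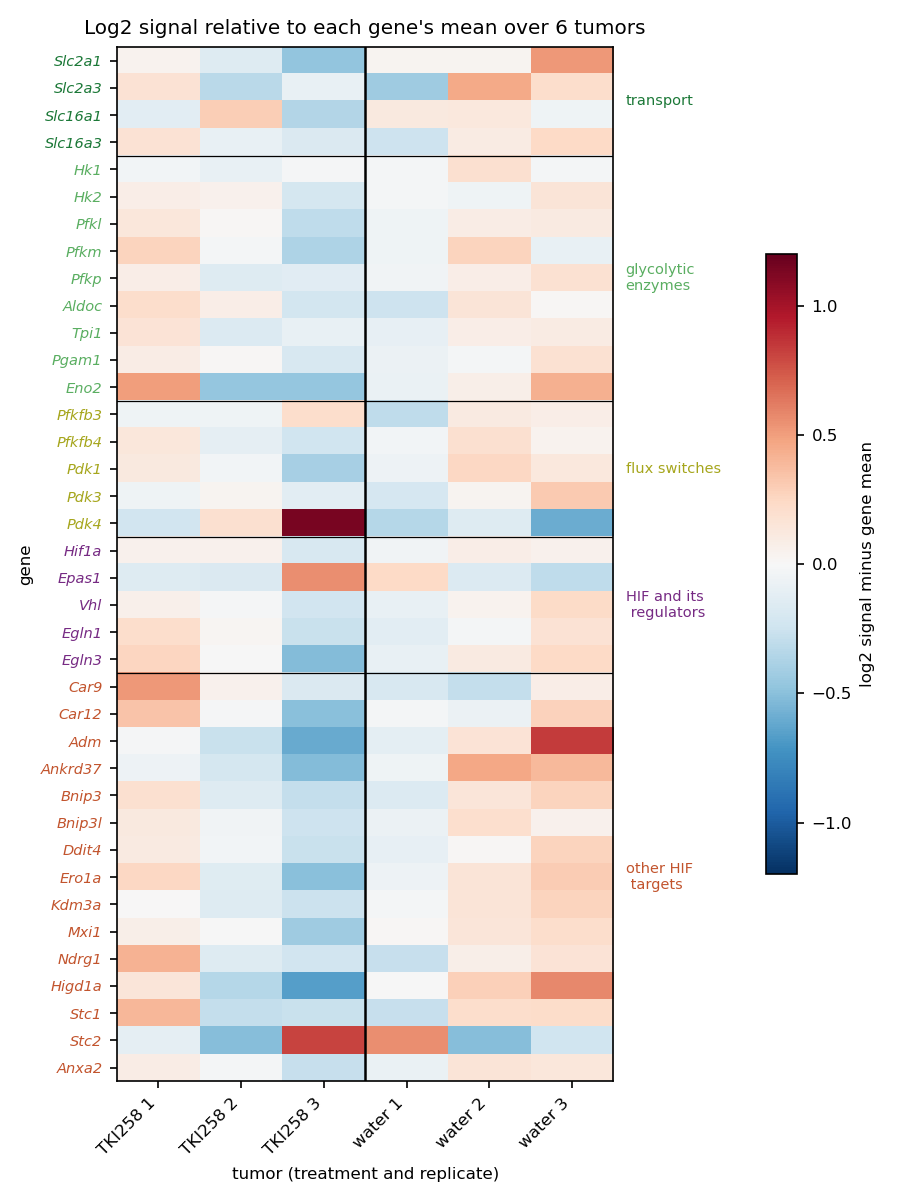
Log2 signal of each of the 38 genes minus its mean over the 6 tumors (color scale), with TKI258 tumors left of the line and water tumors right, grouped by role. The column of TKI258 replicate 3 is blue and that of TKI258 replicate 1 red for most genes, while Pdk4, Epas1, Stc2 and Pfkfb3 are red in replicate 3.

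The mean of the 20 HIF pathway genes was 9.59, 9.32 and 9.19 in TKI258 tumors, against 9.40, 9.51 and 9.65 in water tumors. That of the 18 glycolysis genes was 9.86, 9.71 and 9.63 in TKI258 tumors, against 9.65, 9.88 and 9.88 in water tumors. The groups overlapped in both lists: TKI258 replicate 1 lay above water replicates 1 and 2 for the HIF pathway genes, and TKI258 replicates 1 and 2 lay above water replicate 1 for the glycolysis genes. Without TKI258 replicate 3 the median difference was -0.02 for the glycolysis genes and -0.04 for the HIF pathway genes, with 23 of the 38 lower. Without TKI258 replicate 1 the medians were -0.16 and -0.26 with 33 lower and 7 genes at an unadjusted limma p under 0.05 (6 lower, 1 higher), in a fit where 2353 of 34760 probe sets had such a p. The HIF pathway median was -0.21 without water replicate 1 and -0.06 without water replicate 3. With TKI258 replicate 3 and water replicate 1 both left out, the medians were -0.12 and -0.11, and 27 of the 38 were lower.

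**Figure D4:**
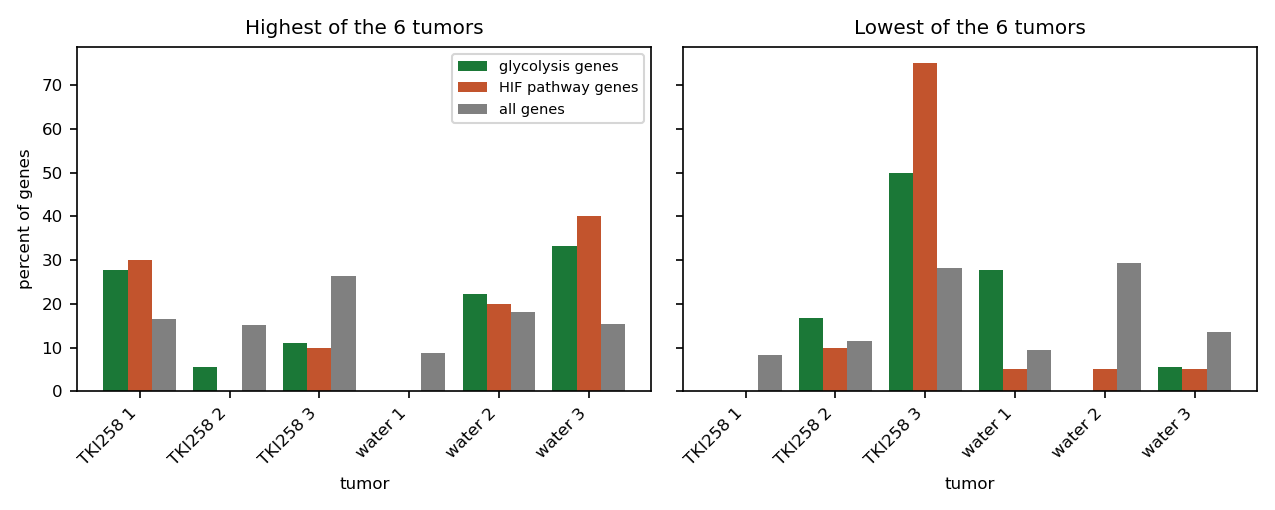
Percent of genes (vertical axis) for which each tumor was the highest (left) or the lowest (right) of the 6, for the 18 glycolysis genes, the 20 HIF pathway genes and all 19937 genes. TKI258 replicate 3 was the lowest in 50% of the glycolysis genes and 75% of the HIF pathway genes, against 28.2% of all genes.

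Markers of other cell types differed between the same tumors. Epithelial markers (10 of 10 measured) had 6 higher and 4 lower means in TKI258 tumors, with list means of 8.54, 8.23 and 8.69 there, against 8.41, 8.40 and 8.74 in water tumors. The luminal keratin Krt8 differed by -0.13 ± 0.10, and Krt18 by -0.32 ± 0.11 with no overlap. Cldn4 and Krt7 differed by 0.91 ± 0.30 and 0.88 ± 0.36, also with no overlap, and Epcam by 0.57 ± 0.31. The basal keratins Krt5 and Krt14 differed by -1.80 ± 0.77 and -1.09 ± 0.66, with overlap. Both were high only in water replicates 2 and 3 (Krt5 9.35 and 9.37, Krt14 8.93 and 8.94). In water replicate 1, Krt5 lay within the range of the TKI258 tumors and Krt14 below all of them. Water replicates 2 and 3 were also the tumors highest in keratinocyte markers. The part of keratinocytes in the Krt5 and Krt14 differences was not tested. Krt18, Cldn4 and Krt7 had an unadjusted limma p under 0.05, against 7.14% of all genes, and the smallest limma adjusted p of the list was 0.574. Other lists held as many or more such genes: 8 of 10 adipocyte markers (all higher), 7 of 10 keratinocyte and 4 of 10 neutrophil markers (all lower). Of 10 endothelial markers 2 were lower and 1 higher with such a p. The B cell, muscle, macrophage and erythroid lists held 0. B cell markers (9 of 10 measured) had list means of 4.97, 5.04 and 8.95 in TKI258 tumors, against 6.89, 4.79 and 4.99 in water tumors, and so stood out in TKI258 replicate 3 and water replicate 1. TKI258 replicate 3 also had the highest mean of the adipocyte markers, 9.07. Keratinocyte markers (10 of 10 measured) were at 5.11, 4.92 and 5.28 in TKI258 tumors, against 5.12, 6.95 and 6.68 in water tumors. Skeletal muscle markers (14 of 14 measured) were highest in water replicate 2 at 7.20, against 5.88 to 6.33 in TKI258 tumors and 5.70 and 6.10 in the other water tumors. Neutrophil markers (10 of 10 measured) were at 6.89, 6.62 and 6.34 in TKI258 tumors, against 7.05, 7.44 and 7.55 in water tumors, with the same tumors at the top and bottom of each group as for the HIF pathway genes. Endothelial markers (10 of 10 measured) had means of 7.49, 7.40 and 7.85 in TKI258 tumors, against 7.76, 7.95 and 7.54 in water tumors, and macrophage markers (9 of 9) had means of 9.55, 9.73 and 9.58 in TKI258 tumors, against 9.70, 10.20 and 9.73 in water tumors. Hemoglobin genes, whose probe sets each list several genes, were not analysed here, and the other 3 erythroid markers were measured but gave list means of only 5.39 to 5.92. The part of these cells in the differences of the glycolysis and HIF genes was not tested.

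**Figure D5:**
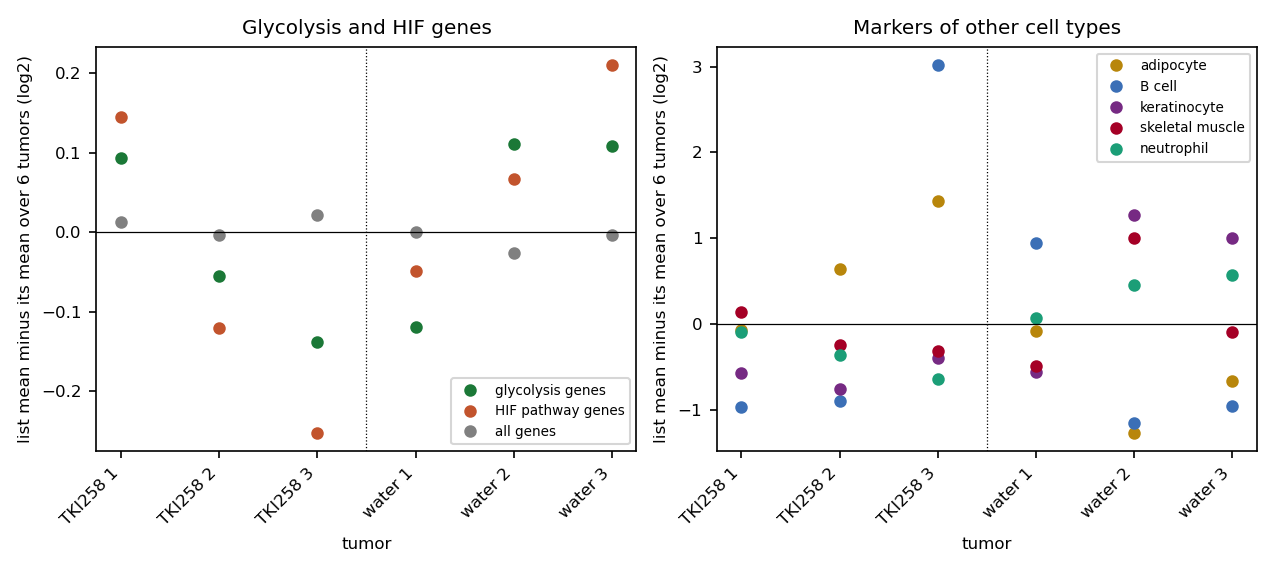
Mean of each gene list in each tumor minus its mean over the 6 tumors (log2 units), for the glycolysis, HIF pathway and all genes (left) and for markers of other cell types (right, wider scale). The HIF pathway genes are lowest and the B cell and adipocyte markers highest in TKI258 replicate 3.

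Other genes of the same pathways split more evenly between higher and lower means, a difference from the 38 genes that was not tested. Of 23 further measured genes of glycolysis and pyruvate use, 13 had lower and 10 higher means in TKI258 tumors (median difference -0.03). Ldha, which makes lactate, differed by -0.05 ± 0.10 and Pgk1 (phosphoglycerate kinase) by -0.03 ± 0.10. Gapdh was not analysed here, since its probe sets list several genes. In 1 of the 23 genes the groups did not overlap in the lower direction, and in 1, Pdk2, in the higher. All genes gave 6.49% and 8.66%. Pdk2, another pyruvate dehydrogenase kinase, had 7.19, 7.26 and 7.13 in TKI258 tumors, against 6.93, 7.07 and 6.65 in water tumors. The difference of Pdk2 was 0.31 ± 0.12, with an unadjusted limma p of 0.0420 and a limma adjusted p of 0.614. Of 15 genes of glycogen and the pentose phosphate path, 7 were lower and 8 higher (median 0.04), none with an unadjusted limma p under 0.05. The groups did not overlap in 1 of these 15, in the lower direction.

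Of 33 further measured HIF targets, 19 had lower and 14 higher means (median -0.02), and 3, all lower, had an unadjusted limma p under 0.05, against 3.35% of all genes in that direction. They were Tgfa, a ligand of the EGF receptor (-0.52 ± 0.12), Ccng2, an atypical cyclin linked to growth arrest (-0.43 ± 0.10), and Cited2, a feedback inhibitor that competes with HIF for its coactivator (-0.31 ± 0.10), with limma adjusted p of 0.533, 0.533 and 0.587. The tumors of the groups did not overlap in any of the 3, as was so for 6.49% of all genes in the lower direction. Ccng2 had 9.52, 9.46 and 9.40 in TKI258 tumors, against 9.78, 9.85 and 10.05 in water tumors. Vegfa, the vessel growth factor that HIF induces, had 9.79, 9.18 and 9.20 in TKI258 tumors, against 9.20, 9.22 and 9.65 in water tumors. Its highest value was in TKI258 replicate 1 and its second highest in water replicate 3, and the difference was 0.04 ± 0.20. TKI258 replicate 3 was the lowest of all tumors in 17 of these 33 genes, against 28.2% of all genes. Of 11 further genes of HIF regulation 3 were lower and 8 higher (median 0.07), and Arnt, the constant partner of the alpha subunits, differed by 0.03 ± 0.09.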

How the data were processed

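Log2 signals per probe set were deposited by the authors for 6 arrays, made with RMA (background correction, normalization across arrays, summary of probes); RMA, affy and limma are the tools listed per the submitters' processing notes. Their versions and the genome build: not given in the sources used here. Signals of different probe sets are not comparable levels.

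Of 34760 probe sets, 21640 listed 1 gene, 1321 several and 11799 none, by the platform annotation; symbols were checked by Entrez number against the mouse reference table (21553 matched, 0 changed), and older list symbols were read through its synonyms. Each of 19937 genes was read from its brightest probe set. limma 3.58.1 in R 4.3.3 fitted TKI258 minus water with group as the only term and eBayes, two-sided, without a filter, over all probe sets with Benjamini-Hochberg adjustment. SE and 95% intervals are the moderated ones. The test was checked on simulated arrays. The number of arrays limits the precision. No 2 arrays were identical (correlations 0.973 to 0.993).

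The genes and lists were chosen with earlier results of these data known. Values in every tumor are given for genes with an unadjusted p under 0.05 or no overlap between groups, the largest difference per role, and Hif1a, Epas1, Vhl, Egln1, Egln3, Slc2a1, Hk2, Pdk1, Car9 and Bnip3. In further lists, genes with an unadjusted p under 0.05 and Vegfa, Ldha, Pgk1, Gapdh and Arnt are named. The median of all probe sets per array was 6.38 to 6.44. Alternatives were other normalizations, filters, eBayes priors, array weights, a replicate block, other probe set choices and each array left out.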

Additional observations from a re-analysis of the deposited data

How the results depend on the processing

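None of the 38 genes had a limma adjusted p under 0.05 with all arrays or under any of the 16 alternatives. Probe sets that passed numbered 0 as reported, 2 with the low-variance filter (which uses the SD over all arrays and is not independent of the test), 0 to 3 with each array left out, and 1 when TKI258 replicate 3 and water replicate 1, high in B cell markers, were both left out, an alternative chosen after seeing the data. Genes of the program with an unadjusted p under 0.05 numbered 2 as reported, 4 with the low-variance filter, 0 with array weights, 1 with that pair left out and 0 to 7 with each array left out, the 7 being without TKI258 replicate 1 and the 0 without TKI258 replicate 3, water replicate 2 or water replicate 3. With a replicate block it was 1, Ankrd37, with a limma unadjusted p of 0.0438, while Higd1a had 0.0908. The replicate numbers are not said to pair tumors, and deviations of same-numbered tumors correlated at -0.23, 0.19 and 0.01, and no adjusted call changed with the block. The median differences ranged from -0.16 to -0.02 for glycolysis and from -0.26 to -0.04 for HIF pathway genes under the alternatives. Each moved by less than its spread between tumors, an SD within groups of 0.13 for glycolysis and 0.17 for HIF pathway genes. That spread exceeds the size of the medians as reported (-0.09 and -0.13), so a median could reach 0 within it. The comparison cannot show that the medians hold. The direction turned for Egln1 (0.0225) with quantile normalization. With array weights, which gave TKI258 replicate 3 the lowest weight (0.442), it turned for Slc16a3 (0.0268), Pfkm (0.0988), Tpi1 (0.008), Hif1a (6e-04), Epas1 (-0.0102), Egln1 (0.0703), Car12 (0.0156), Stc1 (0.0695), Stc2 (-0.17). With that pair left out it turned for Slc16a1 (0.046), Hk2 (0.0176), Pfkm (0.0318), Pfkfb3 (-0.14), Egln1 (0.0445), Car12 (0.0605). With each array left out in turn it turned for Aldoc (-0.0645 to 0.17), Car12 (-0.32 to 0.10), Egln1 (-0.13 to 0.11), Egln3 (-0.35 to 0.04), Epas1 (-0.0845 to 0.31), Hif1a (-0.10 to 0.0196), Hk2 (-0.10 to 0.0428), Ndrg1 (-0.18 to 0.14), Pdk3 (-0.22 to 0.038), Pfkfb3 (-0.0579 to 0.15), Pfkl (-0.19 to 0.0259), Pfkm (-0.24 to 0.08), Pgam1 (-0.12 to 0.0189), Slc16a1 (-0.30 to 0.0195), Slc16a3 (-0.20 to 0.0458), Slc2a3 (-0.41 to 0.0263), Stc1 (-0.33 to 0.0185), Stc2 (-0.25 to 0.44), Tpi1 (-0.15 to 0.0129). The cause of these turns was not tested. The median of all genes lay between -0.03 and 0.05 under the alternatives, the lowest being with the low-signal filter. The low-signal filter left out Pdk4 and the low-variance filter 7 genes.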
